A study of Mus musculus with 4 samples.

Results

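The genes described here are 35 motile cilia genes of the mouse, among 31131 genes covered by the array. They were listed by name: 4 transcription factors of the ciliated cell programme, 26 genes that build the beating axoneme and its dynein motors, and Ccdc113, Tppp3, Ak7, Pifo and Lrrc6. A probe was taken when its gene name was one of these, with Dnaic1 also listed as Dnai1. The list has 55 probes of 39429. Of the genes, 20 have 1 probe, 10 have 2 and 5 have 3, and the probe with the highest mean signal stands for its gene. Of the 35 genes, 34 were above background on all 4 arrays in each of the sources described below. Dnah3, an inner arm dynein heavy chain, was at background on every array and is left out of the counts.

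Motile cilia are carried in the lung by the ciliated cells of the airways, whose beat moves mucus out of the lung. The beat is made by dynein motors on the outer and inner arms of the microtubule doublets. Radial spokes and the central pair of microtubules coordinate these motors, and ruler proteins set their spacing. Foxj1 is the main transcription factor of the programme, Rfx2 and Rfx3 bind the X-box of ciliary promoters, and Myb acts early when multiciliated cells form. In bulk RNA, fewer ciliated cells and less RNA per ciliated cell cannot be told apart.

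RNA from mouse lung was read on Agilent expression arrays with 1 colour, Cy3. Pla2g3+/+ (wild type) and Pla2g3-/- (knockout) lungs were profiled without and with antigen challenge, which makes 4 groups of 1 array, each hybridised with RNA pooled from 4 samples. Pla2g3 encodes group III secreted phospholipase A2. The antigen was ovalbumin: 10 µg with 1.3 mg alum for sensitisation on days 0 and 14, then a 1% aerosol for 30 min daily from day 26 to day 28. Lungs were taken 48 h later. This protocol is attached to every sample, and the treatment of the control mice is not stated separately. Strain, age and the deleted part of Pla2g3 are likewise not stated in the sources used.

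There are 2 sources of values for the same array design: the scanner files of the 4 arrays, and a value table deposited by the authors with 1 column for each sample. Across 39429 probes the log2 levels of a scanner array correlated with the table column of the same name at 0.915 to 0.923 and with columns of other names at 0.915 to 0.922, against 0.985 to 0.994 between arrays of a source. The scanner array and the table column of a group were therefore kept apart throughout. Pla2g3 went against its labels in both: in the scanner files its log2 level was -3.05 in the wild-type control, 0.14 in the knockout control, -2.83 in the wild-type challenged and 1.07 in the knockout challenged array, and in the table -4.66, -0.20, -4.60 and 0.06. It was thus higher in each KO-labelled array than in its WT-labelled counterpart, and whether its probe lies in the deleted part was not tested. The arrays are accordingly called WT-labelled and KO-labelled. Lung markers were not alike in the sources either: by the median gene, 20 alveolar epithelial markers differed by -3.48 on the log2 scale (scanner minus table) and 15 endothelial markers by -6.51.

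Levels below are log2 signal relative to the 75th percentile of the array, so 0 is that percentile. A level depends on the probe, so a gene is set only against itself on another array. With 1 array per group a difference has no p-value. The SE and p-values given for averaged effects come from the disagreement between the pairs that are averaged, moderated over all genes. They do not measure variation between pools or mice. A gene was called different from 2-fold upward in size, which is 1 on the log2 scale. The error given beside scanner differences is the scanner's own spot error and covers the reading of spots and not the mice. It was 0.20 to 0.21 on the log2 scale for all these genes, so counts beyond it are counts past a nearly fixed cutoff. The spread of a difference taken from repeated spots of a probe was smaller, at 0.0971.

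Sequences were read at both ends of the measurement: the promoters of the listed genes, and the probes that read their transcripts. Promoters are shown because Rfx2 and Rfx3 are in the list and bind the X-box. RefSeq promoter windows (build GRCm38.p6, from 250 bases before to 50 bases after the transcription start) were found for 29 of the 35 genes. The X-box core searched for was GTTGCC on either strand, read as GGCAAC on the other strand. It lay in the window of 14 of 29 genes, 48.3%, against 14.1% of 27025 genes. Within 80 bases before to 20 bases after the start it lay in 10 of 29 genes, 34.5%, against 5.62%. Those 10 were Ccdc113, Dnah10, Dnaic2, Hydin, Pifo, Spag6, Spef2, Tekt1, Tekt2 and Tekt4. These 100 bases are printed for 7 of them from 5′ to 3′ along the gene's strand with the core in capitals, followed by Dnah9, the gene with the widest range over the scanner arrays, which has no core in its window.
Ccdc113, chr8:95534020-95534119, plus strand: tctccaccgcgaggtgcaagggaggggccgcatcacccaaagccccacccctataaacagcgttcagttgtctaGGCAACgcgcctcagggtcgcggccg
Dnah10, chr5:124725005-124725104, plus strand: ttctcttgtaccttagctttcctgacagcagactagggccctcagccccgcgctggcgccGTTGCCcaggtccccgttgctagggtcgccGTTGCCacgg
Dnaic2, chr11:114727339-114727438, plus strand: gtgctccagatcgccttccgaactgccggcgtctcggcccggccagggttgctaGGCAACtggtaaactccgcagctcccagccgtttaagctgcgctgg
Hydin, chr8:110266897-110266996, plus strand: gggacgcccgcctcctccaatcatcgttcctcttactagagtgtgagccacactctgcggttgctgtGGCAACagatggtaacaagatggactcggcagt
Pifo, chr3:106001478-106001577, minus strand: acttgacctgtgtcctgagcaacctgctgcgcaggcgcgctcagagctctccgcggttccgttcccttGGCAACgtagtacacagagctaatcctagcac
Spag6, chr2:18698942-18699041, plus strand: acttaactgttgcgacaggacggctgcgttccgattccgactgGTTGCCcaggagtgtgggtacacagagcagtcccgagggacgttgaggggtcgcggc
Tekt1, chr11:72361863-72361962, minus strand: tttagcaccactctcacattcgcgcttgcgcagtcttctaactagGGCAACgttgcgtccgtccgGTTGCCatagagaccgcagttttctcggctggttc
Dnah9, chr11:66168532-66168631, minus strand: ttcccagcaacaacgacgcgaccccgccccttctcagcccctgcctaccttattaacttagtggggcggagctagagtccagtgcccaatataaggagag

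Dnah10 and Tekt1 each held 2 cores in these 100 bases. The Spag6 promoter printed lies on chromosome 2, whereas the array files place the only Spag6 probe on chromosome 16 (build mm9). Promoter and probe of Spag6 are thus not at the same locus. The spaced X-box, GTTGCC followed after any pair of bases by GGNAAC, was found only for Pifo among the 29 genes, 3.45% against 0.355% of all genes. A looser form, GTNNCC followed after any 3 bases by GNNAC, was found for 9 of 29, 31.0% against 5.26%. The forkhead core TGTTTA lay in the windows of 9 of 29 genes, 31.0% against 15.1%, and the Myb core CAACTG in 10 of 29, 34.5% against 15.4%. In the windows of Dnah7a and Dnaic2 the X-box core overlapped a Myb core. The median of the averaged challenge difference was 0.15 for the 14 with the X-box core and 0.18 for the 15 without it in the scanner files. In the table the medians were 0.06 and 0.11. The 14 include Spag6 and also Dnah7a, whose probe is taken up below. A match is a string of letters in the window and does not show binding.

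The probes are 60 bases long. The following pairs come from Dnah10 and Spag16, where probes of a gene could be compared, and the last is the probe that stands for Pifo. The number after each name is the position in the transcript given in the array files.
Dnah10, position 864: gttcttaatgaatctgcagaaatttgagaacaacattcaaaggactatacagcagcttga
Dnah10, position 5989: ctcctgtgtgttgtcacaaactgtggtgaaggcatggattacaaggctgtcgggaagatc
Spag16, position 932: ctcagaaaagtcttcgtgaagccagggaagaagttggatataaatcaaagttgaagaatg
Spag16, position 1810: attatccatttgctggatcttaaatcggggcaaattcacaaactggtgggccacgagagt
Pifo, position 110: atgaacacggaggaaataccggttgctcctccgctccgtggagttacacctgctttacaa

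After challenge the motile cilia genes were within 2-fold of control in both genotype labels and both sources. By the scanner files the median log2 difference of the 34 genes was 0.10 for the WT-labelled and 0.27 for the KO-labelled pair. By the table the medians were 0.07 and 0.11. None of the 34 was past 2-fold in any of these 4 pairs, against 4.43% and 8.72% of all genes by the scanner files and 3.45% and 4.62% in the table. Of genes above background on all 4 arrays, as the 34 are, fewer were past 2-fold. These were 493 and 1277 of 23753 by the scanner files and 334 and 582 of 23887 in the table. Most of the small differences were upward: 27 and 28 of 34 were above 0 in the scanner files, against 45.7% and 42.2% of all genes, and 25 of 34 in each table pair, against 52.3% and 52.9%. Over all genes the medians were -0.03, -0.06, 0.01 and 0.02 in the same order. At 1.5-fold, 2 of 34 genes were past the threshold in the KO-labelled scanner pair (Myb and Dnah8), against 18.8% of all genes, and none in the others, against 10.7%, 7.23% and 10.8%. The 1.5-fold shares include genes that were not above background on all 4 arrays. Differences larger than the spot error numbered 8 of 34 for the WT-labelled and 23 of 34 for the KO-labelled scanner pair, against 39% and 50.7% of the 23753 genes above background on all 4 scanner arrays.

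**Figure D1:**
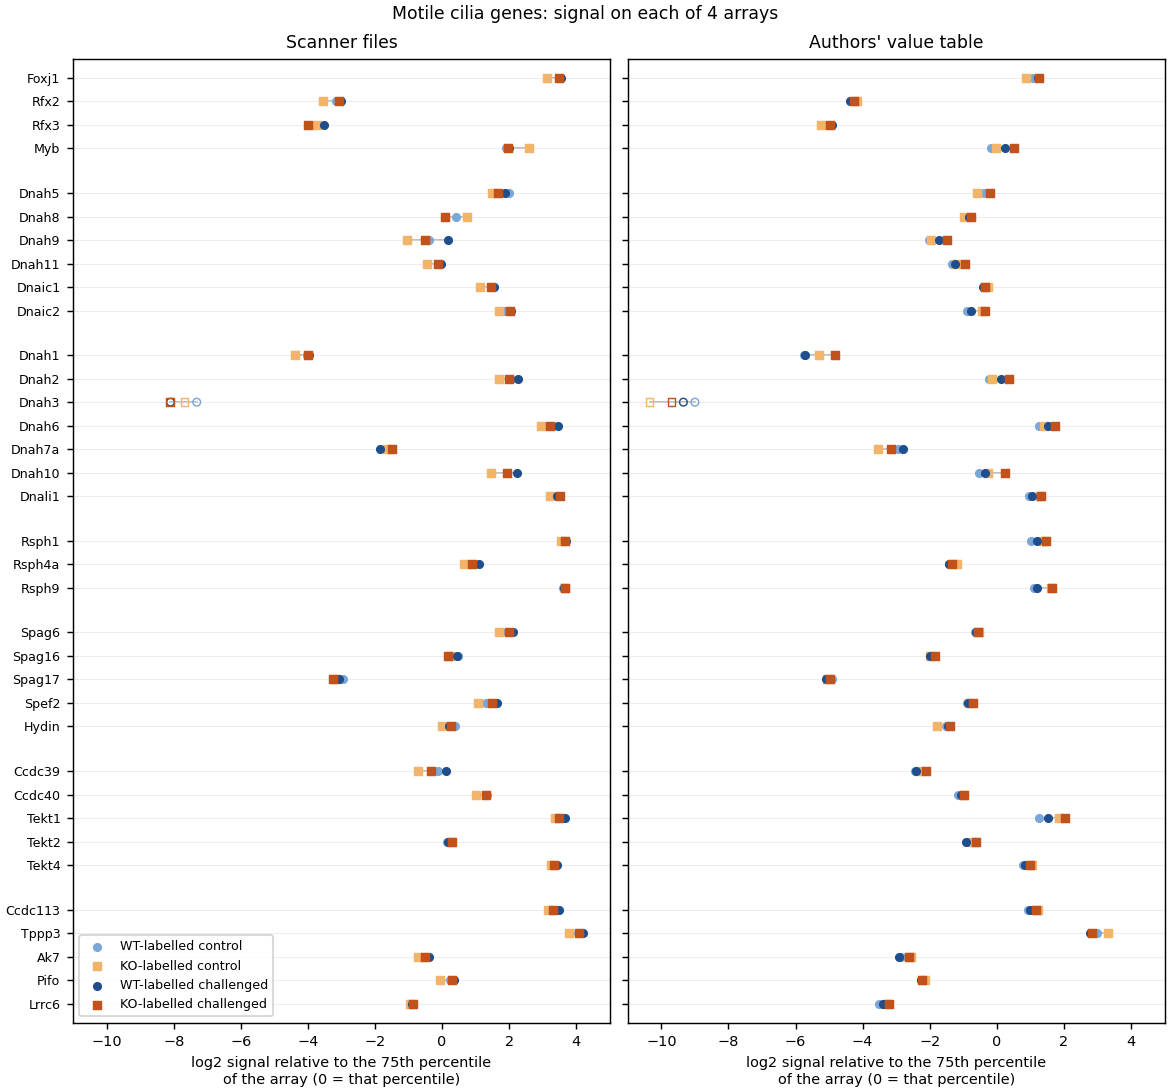
Log2 signal of the 35 motile cilia genes on each of 4 arrays, relative to the 75th percentile of the array, in the scanner files (left) and the authors' value table (right). Each point is 1 array, the grey line spans the 4 arrays of a gene, open points mark Dnah3 at background, and gaps separate the groups of genes by role. The 4 arrays of a gene lie close together, with a median range of 0.409 by the scanner files and 0.349 in the table. Heights of different genes depend on their probes and are not comparable.

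The transcription factors showed no common response. Foxj1 had scanner levels of 3.50 (WT-labelled control), 3.12 (KO-labelled control), 3.55 (WT-labelled challenged) and 3.47 (KO-labelled challenged). The KO-labelled control array was the low one, so the challenge difference was 0.05 for the WT-labelled and 0.35 for the KO-labelled pair. In the table its levels, in the same order, were 1.08, 0.87, 1.23 and 1.26, with differences of 0.15 and 0.38. Averaged over genotype labels, the Foxj1 challenge effect was 0.20 with SE 0.14 (limma, adjusted p = 0.619) by the scanner files and 0.27 with SE 0.10 (adjusted p = 0.585) in the table.

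Myb had scanner levels of 1.906, 2.594, 2.005 and 1.959 in the same array order. Here the KO-labelled control stood above the other 3 arrays, and the KO-labelled challenge difference was -0.64, past 1.5-fold. Myb is also active in immature T cells, and 16 thymocyte and T cell markers moved with it: their summed linear level was 51.9 on the KO-labelled control array against 4.94 to 7.20 on the other 3 scanner arrays. Their part in the Myb value was not tested. In the table Myb had -0.17 and 0.23 in the WT-labelled control and challenged columns and -0.03 and 0.51 in the KO-labelled ones, an averaged difference of 0.47 with SE 0.08 (limma, unadjusted p = 0.0169, adjusted p = 0.566). The T cell markers summed to 9.98 to 14.4 over the table columns, with Rag1 and Rag2, which rearrange antigen receptor genes in immature lymphocytes, at background on all 4.

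Rfx2 and Rfx3, the X-box binding factors, were within 1.5-fold in every challenge pair on the probes that stand for them. Rfx2 gave 0.15 and 0.47 in the WT-labelled and KO-labelled scanner pairs and -0.05 and -0.11 in the table. Rfx3 gave 0.30 and -0.28 by the scanner files and 0.14 and 0.28 in the table. Its 3 probes disagreed in the KO-labelled scanner pair: the probe that stands for the gene gave -0.28, and the others gave 0.54 and 0.01.

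Among the 6 outer arm genes, which carry the motors of the outer dynein arm, Dnah9 had the largest averaged challenge effect in each source. Dnah9 encodes an outer arm heavy chain. Its scanner levels were -0.39 (WT-labelled control), -1.05 (KO-labelled control), 0.17 (WT-labelled challenged) and -0.51 (KO-labelled challenged). In each genotype label the challenged array was the higher one, by 0.56 and 0.54. The table gave -2.04, -1.98, -1.74 and -1.49, and again each challenged column was higher, by 0.30 and 0.48. The averaged challenge effect was 0.55 with SE 0.11 in the scanner files (limma, unadjusted p = 0.019, adjusted p = 0.514) and 0.39 with SE 0.09 in the table (0.0318 and 0.566). Its other probe, at position 8340 of the transcript, gave -0.09 and 0.43 by the scanner files and 0.08 and 0.42 in the table.

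The other outer arm heavy chains were less alike. Dnah5 gave -0.11 and 0.18 in the scanner pairs and 0.17 and 0.38 in the table, and Dnah11 gave 0.03, 0.34, 0.10 and 0.26 in the same order. Dnah8 ran lower after challenge in the scanner files, with levels of 0.41, 0.73, 0.08 and 0.08 and differences of -0.33 and -0.65. The table did not show this, at -0.81, -0.99, -0.84 and -0.76. The other 2 probes of Dnah8 were above background on only 2 of 4 scanner arrays each. The intermediate chains Dnaic1 and Dnaic2, which hold the outer arm to the doublet, gave 0.07 and 0.32, and 0.19 and 0.33, in the scanner files, and -0.01 and -0.10, and 0.11 and 0.10, in the table.

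The inner arm genes were mostly higher after challenge. All 6 measured inner arm genes were above 0 in the KO-labelled scanner pair, where their median was 0.30, and in both table pairs, where it was 0.16 and 0.44. In the WT-labelled scanner pair 5 of 6 were, with a median of 0.12 and Dnah7a at -0.21. Dnah10, an inner arm heavy chain, had scanner levels of 1.94, 1.47, 2.24 and 1.93 in the order WT-labelled control, KO-labelled control, WT-labelled challenged, KO-labelled challenged. The challenged array was higher in each label, by 0.30 and 0.46. In the table its levels were -0.52, -0.27, -0.34 and 0.24, with differences of 0.18 and 0.51. The probes at positions 864 and 5989, printed above, gave 0.47 and 0.42, and 0.55 and 0.59, in the scanner files. In the table the probe at position 864 was above background on 2 of 4 columns, and the probe at position 5989 gave -0.16 and 0.06.

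Dnah2 and Dnah6, also inner arm heavy chains, were higher in all 4 challenge pairs. Dnah2 gave 0.22 and 0.30 by the scanner files and 0.36 and 0.52 in the table, and Dnah6 gave 0.16, 0.28, 0.28 and 0.32. Dnah1 gave 0.05, 0.38, 0.05 and 0.47, and the light intermediate chain Dnali1 gave 0.09, 0.30, 0.09 and 0.02. Dnah7a is uncertain because near-identical copies of the gene, Dnah7b and Dnah7c, lie in the mouse genome and its probes were not checked against them. The array files (build mm9) place the probe that stands for it at chr1:46850378, plus strand. They place its probe at position 3572 at chr1:53634105, minus strand, the strand of its promoter window. That probe gave -0.16, 0.32, 0.05 and 0.23. The probe at position 4168, without a placement, gave -0.17, -0.04, -0.06 and 0.41. Counts rest on the first probe.

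The radial spoke head genes lay within 0.25 of control in every challenge pair. Rsph9 had scanner levels between 3.61 and 3.67 on the 4 arrays, a range of 0.0595 that is below the spot error. Rsph1 gave 0.10 and 0.13 by the scanner files and 0.17 and 0.09 in the table. Rsph4a gave 0.15 and 0.25 by the scanner files and -0.01 and -0.13 in the table.

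Of the 5 central pair genes, Spef2 was the highest after challenge by the scanner files and Hydin changed sign between the pairs. Spef2 had scanner levels of 1.30, 1.06, 1.63 and 1.49, so each challenged array was higher, by 0.33 and 0.43. The table gave 0.02 and 0.11, and the other Spef2 probe gave -0.00 and -0.03 in the scanner files. Hydin, a large protein of the central pair projection, gave -0.20 and 0.25 in the scanner files, and its probe at position 1139 gave -0.19 and 0.12. In the table these Hydin probes gave 0.06 and 0.41, and 0.02 and 0.37.

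Spag6 gave 0.19 and 0.30 by the scanner files and 0.02 and -0.04 in the table. Its probe is placed on chromosome 16 and not at the chromosome 2 promoter printed above. Spag16 and Spag17 lay between -0.19 and 0.13 in every challenge pair on their main probes. The 2 Spag16 probes printed above gave 0.33 and -0.00 (position 932) and -0.11 and 0.16 (position 1810) in the scanner files. In the table they gave 0.16 and -0.00, and 0.58 and 0.28.

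Ccdc39 and Ccdc40 form the ruler along the doublet, and the tektins are filaments inside the doublet wall. Ccdc39 gave 0.21 and 0.39 by the scanner files and 0.03 and 0.19 in the table, and Ccdc40 gave -0.03, 0.29, 0.07 and 0.03. Tekt1 was higher in all 4 challenge pairs, by 0.17, 0.10, 0.27 and 0.18. Tekt2 and Tekt4 lay between -0.07 and 0.10 in all 4.

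Tppp3, a tubulin-binding protein abundant in ciliated cells, differed between sources in the sign of both challenge differences. Its scanner levels were 4.06 (WT-labelled control), 3.78 (KO-labelled control), 4.19 (WT-labelled challenged) and 4.07 (KO-labelled challenged). The challenged arrays were higher, by 0.12 and 0.29. In the table it had 2.99, 3.31, 2.77 and 2.85, with the challenged columns lower, at differences of -0.23 and -0.46. Ccdc113, Ak7, Pifo and Lrrc6 lay between 0.02 and 0.37 in the scanner pairs and between -0.11 and 0.12 in the table. The second Pifo probe was at background on all 4 arrays of each source.

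**Figure D2:**
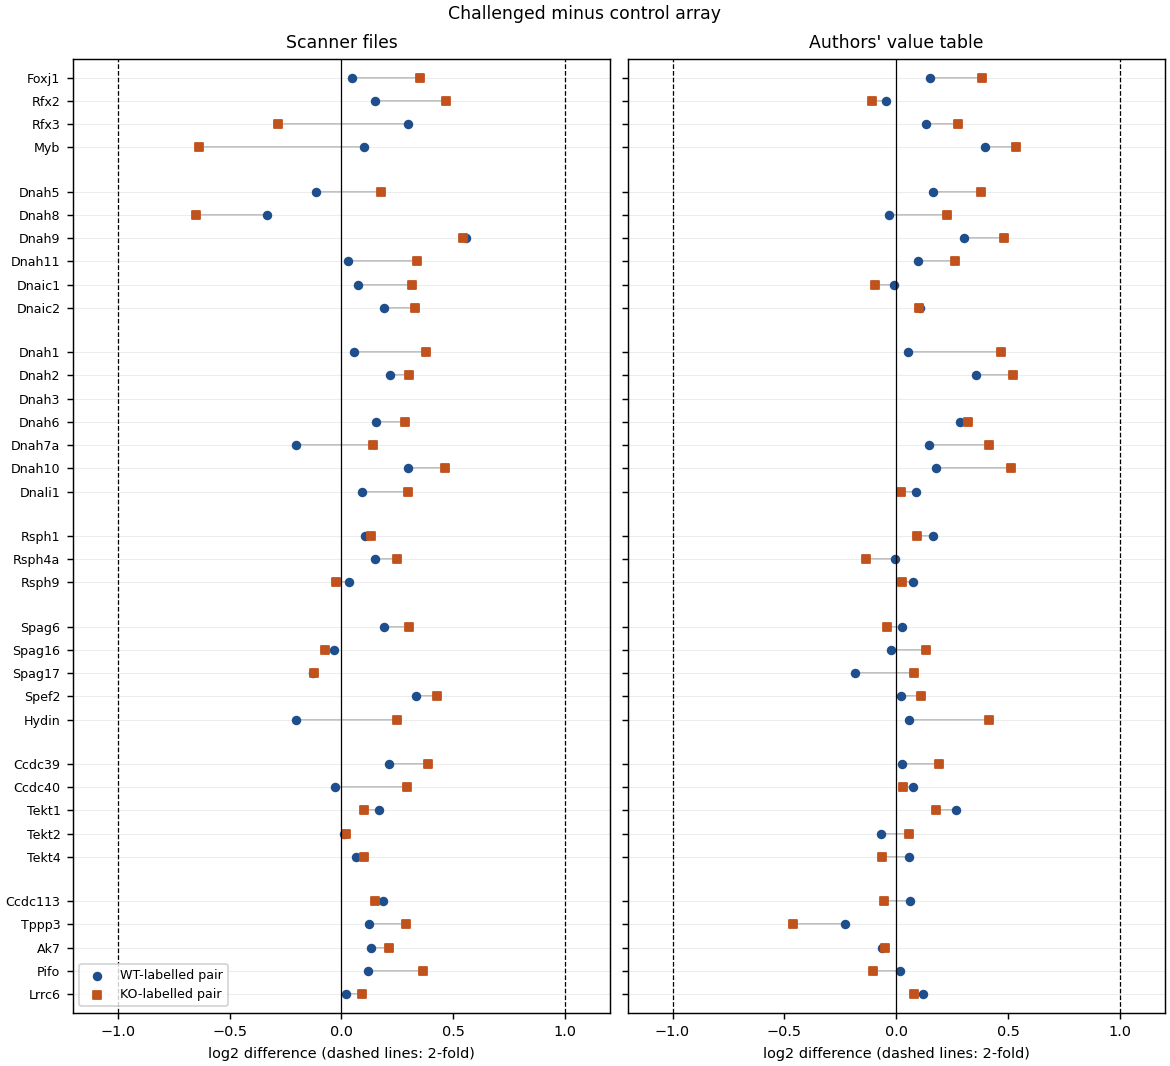
Challenged minus control array for each of 34 motile cilia genes, as a log2 difference, in the scanner files (left) and the authors' value table (right). Circles are the WT-labelled pair, squares the KO-labelled pair, and dashed lines mark 2-fold. All points lie inside the 2-fold lines, and most lie to the right of 0.

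The WT-labelled and KO-labelled pairs of a source share no array, and whether the sources share RNA is not known. In the scanner files 24 of 34 genes were higher in both pairs and 3 lower in both, against 25.7% and 38.4% of all genes. By the table, 21 were higher in both and 5 lower, against 34% and 28.8%. Higher in all 4 pairs of both sources were 14 of 34, 41.2%, against 10.2% of 23356 genes measured in all of them. These were Foxj1, Dnah9, Dnah11, Dnaic2, Dnah1, Dnah2, Dnah6, Dnah10, Dnali1, Rsph1, Spef2, Ccdc39, Tekt1 and Lrrc6. None was lower in all 4, against 12.4%. Across the 34 genes, as a description, the challenge differences of the sources correlated at r = 0.32 and rho = 0.26 for the WT-labelled pair and at r = -0.11 and rho = 0.03 for the KO-labelled pair. The averaged challenge effects correlated at r = -0.01 and rho = 0.01. Ciliary genes share cells, so they are not independent of each other.

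No averaged challenge effect passed a Benjamini-Hochberg adjusted p of 0.05 in limma. This was 0 of 34, and 0 of 26371 genes in all (0%), by the scanner files, and 0 of 34 and 0 of 26069 (0%) by the table. At an unadjusted p under 0.05 stood 1 of 34 in the scanner files (Dnah9), against 9.56% of all genes, and 4 of 34 in the table (Myb, Dnah9, Dnah2 and Dnah6), against 8.79%. The lowest adjusted p among the 34 was 0.514 and 0.566. The fit has 1 residual degree of freedom, and in simulated data it recovered 0 of 50 genes changed 4-fold and 27 (scanner) or 35 (table) of 50 changed 16-fold.

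Between genotype labels the sources pointed in opposite directions. In the scanner files the 34 genes were lower in the KO-labelled arrays, with a median of -0.24 among controls and -0.10 among challenged arrays. In the table they were higher, with medians of 0.14 and 0.16. Over all genes these medians were -0.03, -0.06, -0.00 and 0.01. None of the 34 was past 2-fold in any of the 4 comparisons, against 5.98% and 8.16% of all genes by the scanner files and 5.14% and 5.79% in the table. Of genes above background on all 4 arrays, 878 and 1072 of 23753 were past 2-fold by the scanner files. In the table these were 718 and 750 of 23887. Above 0 were 6 and 7 of 34 in the scanner files, against 45.9% and 39.3% of all genes, and 26 and 31 of 34 in the table, against 49.5% and 51.4%. At 1.5-fold there were 3 and 1 of 34 in the scanner files, against 13.4% and 16.8% of all genes: Myb (0.69), Dnah9 (-0.67) and Ccdc39 (-0.61) among controls, and Dnah9 (-0.68) among challenged arrays. In the table there were 1 and 1, against 11.1% and 11.4%: Dnah7a (-0.62) among controls and Dnah1 (0.88) among challenged arrays. The 1.5-fold shares include genes that were not above background on all 4 arrays.

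On the scanner side 1 array was the lowest for most genes. The KO-labelled control array had the lowest level of the 4 for 26 of 34 genes, against 24.6% of genes above background on all 4 arrays, and this array is in both the KO-labelled challenge pair and the control comparison of labels. In the table the WT-labelled control was the lowest column for 20 of 34 genes, against 25.5%. The T cell markers that were high on the KO-labelled scanner control were named above for Myb, and 20 cell cycle genes also summed highest there, at 38.7 against 20.2 to 24.3 on the other 3 arrays. Their part in the lower ciliary levels was not tested. In the comparison of challenged arrays, which does not use that array, the scanner median was -0.10 and 8 of 34 differences exceeded the spot error, against 40% of genes above background on all 4 arrays. Among controls 22 of 34 did, against 41.7%.

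**Figure D3:**
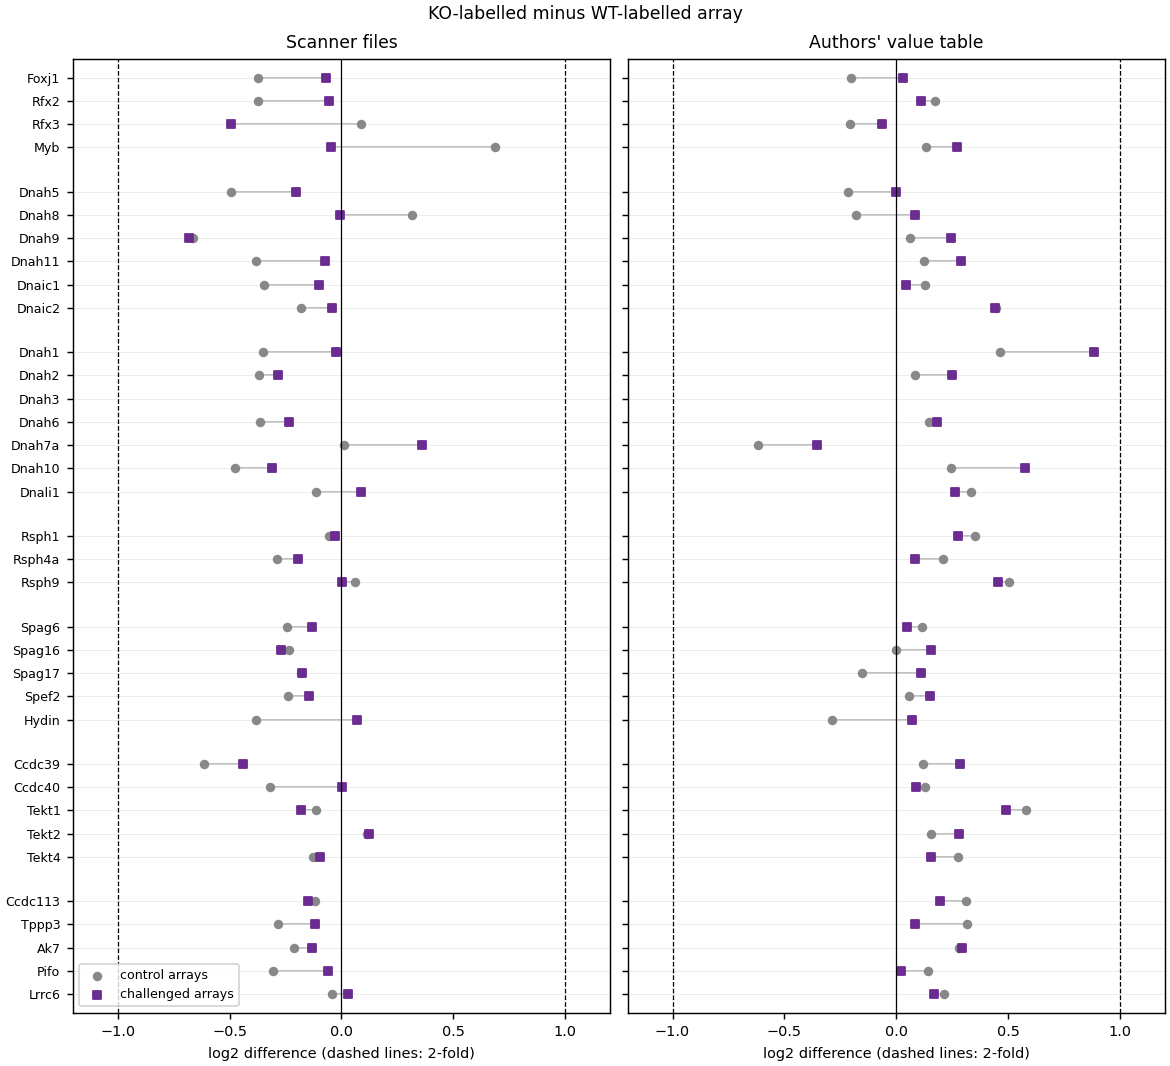
KO-labelled minus WT-labelled array for each of 34 motile cilia genes, as a log2 difference, in the scanner files (left) and the authors' value table (right). Circles are the control arrays, squares the challenged arrays, and dashed lines mark 2-fold. Most scanner points lie left of 0 and most table points right of 0.

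Dnah9 and Ccdc39 had the lowest scanner values between labels, and Dnah1 and Tekt1 stood out in the table. The Dnah9 differences were -0.67 among controls and -0.68 among challenged arrays, with each KO-labelled array the lower one, and in the table they were 0.06 and 0.24. The other Dnah9 probe, at position 8340, gave -0.67 and -0.14 in the scanner files. In the table it gave -0.41 and -0.08, opposite in sign to the probe that stands for the gene. Ccdc39 had scanner levels of -0.11, -0.72, 0.10 and -0.33 in the array order used above, and gave -0.61 and -0.44, against 0.12 and 0.28 in the table. Averaged over treatments, the effect was -0.67 with SE 0.11 for Dnah9 (limma, unadjusted p = 0.0114, adjusted p = 0.427) and -0.53 with SE 0.12 for Ccdc39 (0.0276 and 0.445) in the scanner files.

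Dnah1, an inner arm heavy chain, had table levels of -5.76, -5.29, -5.71 and -4.83. Both KO-labelled columns were the higher ones, by 0.46 and 0.88. Tekt1 had table levels of 1.26, 1.84, 1.53 and 2.02, and its KO-labelled columns were higher by 0.58 and 0.49, with the second Tekt1 probe at 0.57 and 0.46. The averaged effect for Tekt1 was 0.54 with SE 0.08 (limma, unadjusted p = 0.01, adjusted p = 0.244). In the scanner files Dnah1 gave -0.35 and -0.02 and Tekt1 gave -0.11 and -0.18.

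Dnaic2 and Rsph9 were likewise higher in the KO-labelled table columns, by 0.45 and 0.44, and by 0.50 and 0.46. Their scanner differences were -0.18 and -0.04, and 0.06 and 0.00. Dnah7a, with the near-identical copies and the probe placement given above, was lower in both KO-labelled table columns, at -0.62 and -0.35. It gave 0.01 and 0.36 in the scanner files. The probe at position 3572 gave -0.53 and -0.34 in the table and -0.59 and -0.11 in the scanner files. The probe at position 4168 gave -0.50 and -0.03, and -0.34 and -0.21. Rfx3, at -0.20 and -0.06, and Dnah5, at -0.21 and -0.00, were the other genes below 0 in both table comparisons. The second Spag17 probe, dimmer than the first, gave -1.65 and -1.46 in the scanner files, where the probe that stands for the gene gave -0.18 and -0.18. In the table the second probe was above background on 2 of 4 columns.

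In limma 0 of 34 genes passed the adjusted threshold for genotype label in either source, as did 0 of all genes (0%). At an unadjusted p under 0.05 were 2 of 34 in the scanner files, Dnah9 and Ccdc39, against 10.7% of all genes. In the table there were 8 of 34, against 13.8%: Dnaic2, Dnah1, Dnah7a, Dnali1, Rsph1, Rsph9, Tekt1 and Ak7. With a variance trend in eBayes, 3 of 34 passed in the table, Dnaic2 (adjusted p = 0.0461), Rsph9 (0.0245) and Tekt1 (0.0185), among 1042 of all 26069 genes. Across labels, 24 of 34 were lower in both scanner comparisons, against 36.2% of all genes, and 26 of 34 higher in both table comparisons, against 33.2%. Rsph9 and Tekt2 were higher in all 4 comparisons of both sources, 2 of 34 against 8.55% of all genes, and Dnah5 was lower in all 4, against 12.6%.

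The difference between the challenge responses of the labels was small. Its median over the 34 genes was 0.10 by the scanner files and 0.06 in the table, against -0.04 and 0.01 over all genes. No gene was past 2-fold, against 9.71% and 6.03% of all genes. These shares include genes that were not above background on every array, as the 34 are, so they are not a matched comparison. The extremes were Myb at -0.73 and Hydin at 0.45 in the scanner files, and Tppp3 at -0.23 and Dnah1 at 0.42 in the table. No gene had responses of opposite sign that were both at least 1.5-fold. This difference could not be tested with 1 array per group.

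The levels themselves were higher in the scanner files. The sources were normalised separately, so this is a description. All 34 genes had their 4 scanner levels above their 4 table levels, as did 50.3% of all genes, and 33 of 34 were at least 2-fold higher by the mean, against 29.4%. By the median gene they were 2.08 higher on the log2 scale, against 0.43 over all genes. It ran from 1.00 for Tekt2, which missed 2-fold at 1.99-fold, to 2.52 for Dnaic2 and Spag6. With both sources scaled to a median over shared probes that were above background throughout, the median difference was 2.23 for these genes and 0.58 over all genes.

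By role, the median difference between sources was 1.63 for the regulators, 1.56 for the outer arm, 1.85 for the inner arm, 2.26 for the radial spoke, 2.20 for the central pair, 2.05 for ruler and doublet genes and 2.24 for the remaining genes. Foxj1 was higher by 2.30, Myb by 1.98, and Rfx2 and Rfx3 by 1.09 and 1.29. The heavy chains Dnah11, Dnah8 and Dnah9 were at the low end, at 1.03, 1.17 and 1.37.

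Most other lists of airway and ciliary genes had higher levels in the scanner files as well, by differing amounts. The median was 2.49 for 22 other ciliated cell markers, 2.10 for 52 other axonemal genes, 2.20 for 14 genes of dynein docking and the dynein regulatory complex, and 2.37 for 18 markers of club cells, the secretory cells of the airway. For 14 airway basal cell markers it was 4.99. The general transport machinery of cilia, 39 intraflagellar transport and BBSome genes found in most cells with a cilium, was higher by 1.22, and 13 dynein assembly factors by 1.72. The shift was smaller or less uniform for 18 multiciliogenesis genes, at 0.75 with 12 of 18 higher without overlap, and for 13 goblet cell markers, at 1.70 with 7 of 13. It was not limited to airway genes, since 12 male germ cell genes were higher by 1.28. Alveolar, endothelial and smooth muscle markers ran the other way, at -3.48, -6.51 and -5.64. What sets the sources apart was not tested.

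**Figure D4:**
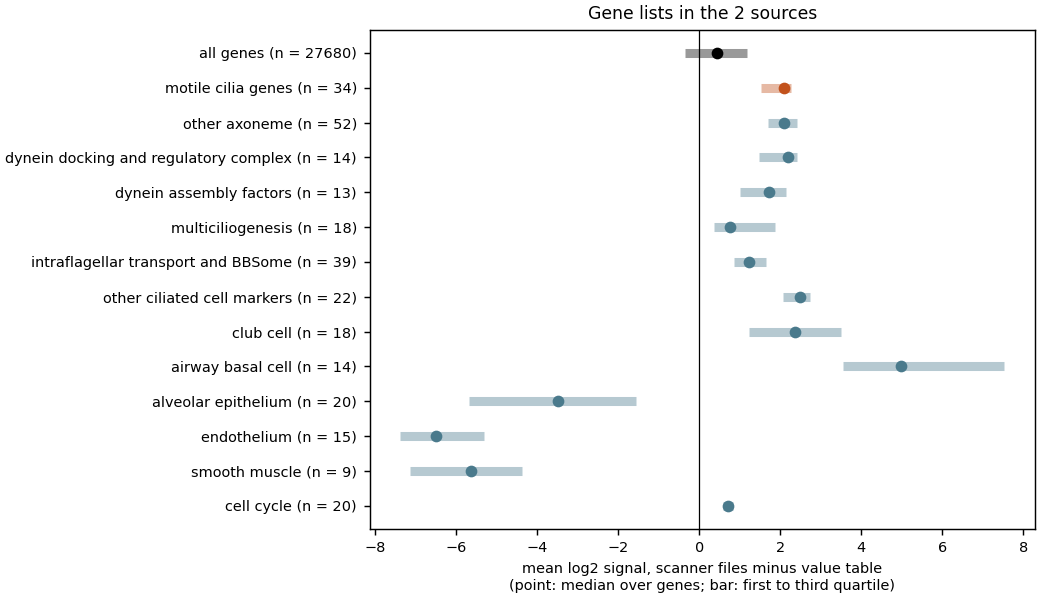
Mean log2 level in the scanner files minus that in the authors' value table, for the motile cilia genes, all genes and 12 other gene lists. The point is the median over the genes of a list and the bar runs from the first to the third quartile. Motile cilia genes sit at 2.08 beside other airway lists, while alveolar epithelium, endothelium and smooth muscle lie below 0.

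Counts past 2-fold on challenge were also taken for the rest of the ciliary machinery. The shares over all genes, given above, were 4.43% and 8.72% by the scanner files and 3.45% and 4.62% in the table. Of genes above background on all 4 arrays, 493 and 1277 of 23753 were past 2-fold by the scanner files. In the table these were 334 and 582 of 23887. In lists of this size, counts of 0 or 1 are not told apart from these shares. Of 52 other axonemal genes, 0 were past 2-fold upward and 1 downward in the WT-labelled scanner pair (Rsph6a at -1.01), and none in the other 3 pairs. Their medians were 0.07 and 0.13 by the scanner files and 0.06 and 0.13 in the table. Of 13 dynein assembly factors, which fold dyneins in the cytoplasm before they enter the cilium, Dnaaf6 alone was past 2-fold, at 1.43 in the KO-labelled scanner pair, and it gave 0.20 in the table. Among challenged arrays Dnaaf6 was higher in the KO-labelled one in both sources, by 1.18 and 1.57. Of all genes, 8.16% and 5.79% were past 2-fold in either direction there. The list's medians were 0.13, 0.22, 0.04 and 0.21. The 14 docking and regulatory complex genes had 0 past 2-fold and medians of 0.08, 0.28, -0.01 and 0.07. The 39 transport genes had 1 past 2-fold, the kinesin Kif17 at 1.09 in the KO-labelled table pair, and medians of 0.05, 0.07, -0.02 and -0.03.

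The 22 other ciliated cell markers had 0 past 2-fold in any challenge pair and medians of 0.13, 0.15, 0.04 and 0.07. Among them Tmem212 was lower in the KO-labelled arrays of both sources: its scanner levels were 4.01, 2.99, 4.18 and 2.60 and its table levels 1.84, -0.18, 1.99 and 0.08. The KO-labelled minus WT-labelled differences were -1.02 and -1.58 by the scanner files and -2.02 and -1.91 in the table. Past 2-fold in these comparisons were 5.98% and 8.16% of all genes by the scanner files and 5.14% and 5.79% in the table. Tmem212 was picked after its values were seen. Of the 22 markers, 13 were lower and 2 higher in both scanner comparisons. In both table comparisons 3 were lower and 17 higher, the other way from Tmem212. Goblet cell markers, the mucus-producing cells of the airway, were higher on challenge, with medians of 0.83 and 0.89 by the scanner files and 2.75 and 2.50 in the table over 13 genes. Of these 13, 3 and 5 were past 2-fold upward in the scanner files, against 2.4% and 4.38% of all genes, and 10 and 12 in the table, against 2.36% and 3.27%.

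Among 18 genes that act while multiciliated cells form, up to 3 were past 2-fold on challenge, all of them higher and in the table. Foxn4 is a transcription factor of that stage, Deup1 builds the deuterosomes that multiply centrioles, and Ccno and Cdc20b are needed for the same step. In the table Foxn4 had -3.31 (WT-labelled control), -2.73 (KO-labelled control), -2.23 (WT-labelled challenged) and -0.90 (KO-labelled challenged). Each challenged column was higher, by 1.08 and 1.84. Deup1 had -0.88, -0.53, -0.25 and 0.89, and Ccno had -1.25, -0.71, -0.57 and 0.51. Both were past 2-fold in the KO-labelled pair, at 1.42 and 1.22, and gave 0.63 and 0.68 in the other. Foxn4, Deup1 and Ccno were the 3 of 18 genes on the list past 2-fold in that pair, against 3.27% of all genes upward, and Foxn4 was the 1 of 18 in the WT-labelled table pair, against 2.36%.

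The scanner files gave other values on challenge. Foxn4 gave -0.69 and 0.15, Deup1 -0.38 and 0.01, and Ccno -0.55 and 0.11 in the WT-labelled and KO-labelled pairs. Among challenged arrays, some genes picked after their values were seen were positive in both sources. KO-labelled minus WT-labelled was 1.29 and 1.33 for Foxn4, 0.98 and 1.08 for Ccno, 0.69 and 1.13 for Deup1 and 0.76 and 0.97 for Cdc20b, scanner first. Of all genes, 8.16% and 5.79% were past 2-fold in either direction in this comparison. Over all 18 genes that comparison had medians of 0.09 and 0.15, with 9 higher in both sources, 3 lower in both and 6 opposite. Of 24112 genes in all, 4758 were higher in both, 6948 lower in both and 12406 opposite. Mcidas, also on this list, ran the other way, at -0.99 and -0.28. Cell cycle genes, which share some of this machinery, had medians of 0.75 and 0.35 in the same comparison and 1.19 in the KO-labelled table pair on challenge. Their part in these values was not tested.

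**Figure D5:**
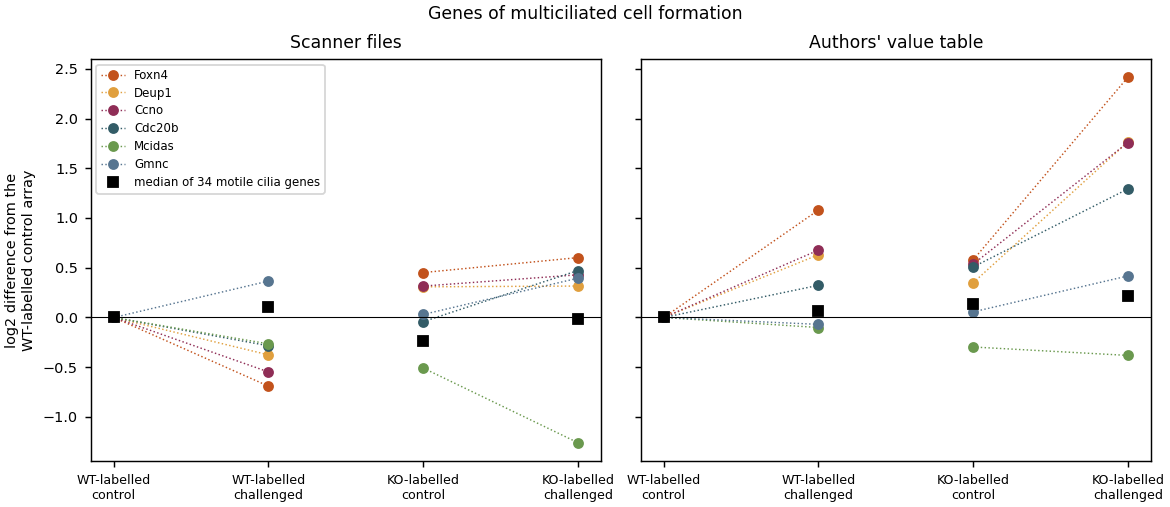
Log2 difference of 6 genes of multiciliated cell formation from the WT-labelled control array, in the scanner files (left) and the authors' value table (right). Dotted lines join the control and challenged array of a genotype label, and black squares give the median of the 34 motile cilia genes. In the table Foxn4, Deup1, Ccno and Cdc20b are highest in the KO-labelled challenged column while the black squares stay between 0 and 0.21.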

How the data were processed

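Lung RNA was hybridised to Agilent arrays, 1 for each of 4 groups taken from the sample titles. Per the file headers, the authors' scanner files hold spot intensities read with Agilent Feature Extraction 11.5.1.1, background-subtracted and not yet normalised between arrays. The deposited value table holds a linear signal for each probe and sample, scaled so that the 75th percentile of a column is at 1.00; how it was made is not given. Its columns were matched to the array design by feature number.

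Each scanner array and table column was set to log2. The 75th percentile was subtracted from the scanner arrays only, because the table columns were already scaled to it. Control spots were left out, as were 19 probes with uneven spots in the scanner files only, and spots of a probe were averaged. Above background meant the scanner's own flag, or in the table more than 5 times the median of 153 negative controls. The probe intensity at the 75th percentile was 1808 to 1986 and 79.2% to 81.9% of probes were above background. The number of arrays limits the precision, and no spread between pools or between mice was measured.

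Differences between single arrays carry no test. The averaged effects were fitted with limma 3.58.1 (R 4.3.3) over all genes in an additive model with eBayes and Benjamini-Hochberg adjustment, separately in each source. The fit was tested on simulated data. Tables were handled with Python 3.11.15, pandas 2.3.3 and numpy 2.4.6. All members are named. Genes of other lists are named because they passed 2-fold or as examples, and were chosen after their values were seen. The members and lists were chosen with earlier results of these data known. Alternatives were quantile and median scaling, normexp, other filters, folds and probe rules, limma priors and the other source.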

Additional observations from a re-analysis of the deposited data

How the results depend on the processing

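Of the values that answer a comparison, 155 alternatives left the value within 1.5 times or within 0.0971 on the log2 scale, 11 moved it and 4 reversed it. Part of the 155 could not have changed. A stricter fold cannot alter a count of 0, and the filter for genes above background on all 4 arrays keeps the same 34 genes. The tally is therefore not a measure of how firm the values are. The median over the 34 genes was reversed between sources for the genotype label: -0.24 became 0.14 among controls and -0.10 became 0.16 among challenged arrays when the table replaced the scanner files, and the reverse when the scanner files replaced the table (-0.0985 for challenged arrays). For the KO-labelled challenge pair the median moved between 0.27 and 0.11. At 1.5-fold in place of 2-fold the counts of 0 became 2 for the KO-labelled challenge pair, 3 and 1 for the genotype label among controls and challenged arrays in the scanner files, and 1 and 1 in the table. With the mean of all probes of a gene, 2 genes (Dnah8 and Dnah6, through probes near background) were past 2-fold for the genotype label in scanner controls, and without a filter on dim probes 1 gene, Dnah3, was in table controls. With a variance trend, limma passed 3 genes for the genotype label in the table. Scaling both sources to the median of shared probes moved the difference between sources from 2.08 to 2.23.

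Among single genes, the mean of all probes reversed the averaged challenge effect of Spag16 (0.0448) and Spag17 (0.12) in the scanner files and of Pifo (0.29) in the table. It also reversed the averaged genotype effect of Dnah7a (-0.14) in the scanner files and of Dnah9 (-0.0459), Dnah6 (-0.0528), Spag17 (0.11) and Spef2 (-0.0910) in the table. Apart from the probes averaged, the cause was not tested. For single genes and counts over all genes, 1066 alternatives left the value, 37 moved it and 3 brought it past the threshold. Among those moved was the count of all genes passing limma in the table, which was no longer 0 in these settings. For the genotype label these were genes above background on all 4 arrays and a variance trend, and for challenge a variance trend.

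With 1 array a group, leaving one out removes the group. No paired analysis was possible because each group has 1 array and the labels carry no replicate numbers. Variation between mice was not measured, and Dnah3, at background on every array, gives no usable difference.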
